A study of Mus musculus with 6 samples.

Results

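The genes described here are 50 mouse genes of fatty acid metabolism, chosen by name for their role: 16 act in synthesis and desaturation, 9 in activation and transport, 11 in storage and lipolysis, and 14 in beta oxidation. They are 50 of the 35127 genes in the files, and all 50 passed the filter on low counts, which left 14359 genes to be tested. The RNA came from astrocytes and filled 6 libraries. Those called tumour, 3 in number, held astrocytes taken from small cell lung cancer (SCLC) grafts growing in the mouse brain, and the 3 sham libraries held astrocytes from brains that received a sham injection. The labels call the grafts allografts, and name the same cell type in both groups. Not given in the sources used here are the strain, age, tumour line, way of purification and number of animals. Each p-value is therefore set against library-to-library spread alone, and that spread may be technical.

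Cells build fatty acids in the cytosol from acetyl-CoA, and SREBP and LXR transcription factors drive many of the genes that do so. Desaturases and elongases then remodel the chains, acyl-CoA synthetases activate them, and small binding proteins carry them. Surplus fatty acids are stored as triglyceride in lipid droplets, freed again by lipases, or taken into mitochondria by the carnitine shuttle for beta oxidation, a pathway under the nuclear receptor PPAR alpha. In the brain, astrocytes are a main site of fatty acid synthesis, lipid droplet storage and fatty acid oxidation.

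Depth was similar, at 22133723 to 25800897 estimated reads per library. Tumour libraries 1 to 3 lay close together, as did sham 1 and 2, with a root mean square log2 difference of 0.322 to 0.352 within these pairs over tested genes. Tumour and sham libraries differed by 0.734 to 0.749. Sham 3 differed from sham 1 and 2 by 0.795 to 0.802, so it stood apart from its own group by more than the groups stood apart. The 9 astrocyte markers examined were all tested, and their summed level was 3136 to 3244 CPM (counts scaled to a common library size of 1e+06) in tumour and 2685 to 4602 CPM in sham libraries. Of them Gja1 fell 1.92-fold (edgeR adjusted p = 0.0268) and Aldh1l1 rose 1.40-fold (edgeR adjusted p = 0.0215). Markers of pericytes and fibroblasts had a sum of like size, 3621 to 3653 CPM in tumour and 3446 to 5798 CPM in sham libraries. Col1a1 and Col1a2 made up most of it, at 962 to 970 and 2312 to 2345 CPM in tumour libraries. In sham libraries they were at 1070 to 1717 and 2048 to 3825 CPM. Rgs5 was under 1 CPM in every library.

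Promoter stretches of 5 called members are shown as examples, chosen with their values in view: a droplet protein that rose and 4 genes that fell. The calls of Fasn, Cpt2 and Fabp7 ended when some single tumour library was left out, as given below. RefSeq promoters (build GRCm38.p6) were matched for 43 of the 50 members. Each window of 300 bases, 250 before and 50 after the start of transcription, was searched on both strands for 5 motifs. The letters printed below lie before the start used, which is position 0, and capitals mark motif matches that lie whole within the letters printed. For Hilpda another annotated start lies 138 bases upstream. Its letters lie after that start, and 29 of the 46 bases are annotated untranslated sequence.
Hilpda, chr6:29272580-29272625, plus strand: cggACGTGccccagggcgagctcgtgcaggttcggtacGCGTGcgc
Mgll, chr6:88724262-88724411, plus strand: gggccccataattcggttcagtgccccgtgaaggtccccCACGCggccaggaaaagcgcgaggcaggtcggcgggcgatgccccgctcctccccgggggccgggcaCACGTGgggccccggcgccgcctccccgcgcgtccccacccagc
Fasn, chr11:120824548-120824697, minus strand: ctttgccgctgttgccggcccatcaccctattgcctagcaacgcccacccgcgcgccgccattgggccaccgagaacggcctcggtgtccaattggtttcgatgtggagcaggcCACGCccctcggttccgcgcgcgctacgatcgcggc
Cpt2, chr4:107923611-107923739, minus strand: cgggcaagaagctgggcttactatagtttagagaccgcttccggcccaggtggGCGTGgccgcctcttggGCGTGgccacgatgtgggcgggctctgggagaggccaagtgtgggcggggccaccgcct
Fabp7, chr10:57784773-57784880, plus strand: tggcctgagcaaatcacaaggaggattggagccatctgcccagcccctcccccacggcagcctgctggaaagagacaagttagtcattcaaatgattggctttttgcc

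The Hilpda stretch held ACGTG at -43 to -39 and GCGTG at -8 to -4, and its window held a further GCGTG at -111 to -107. These matches all lie after the other annotated Hilpda start, 138 bases upstream. ACGTG and GCGTG are both known as cores of the element that hypoxia-inducible factors bind. The Mgll stretch held the E-box CACGTG at -44 to -39, which contains ACGTG on both strands, and a GCGTG read on the other strand (printed as CACGC) at -111 to -107, with a further GCGTG in its window at -214 to -210. Fasn had a reverse GCGTG at -36 to -32 and 2 more GCGTG in its window, at -2 to 2 and 32 to 36. The start used for Fasn lies 452 bases from that of Fasn-205, its main transcript by TPM. Cpt2 had GCGTG at -97 to -93 and at -80 to -76, and Fabp7 had no match to any of the motifs. These short strings are common: ACGTG was in 19.7% and GCGTG in 32.6% of all 32544 promoters, and in 12 and 25 of the 43 member promoters. CACGTG was in 7.17% of all promoters and in 4 members. Of the 10 members called lower that had a promoter, 1 held ACGTG and 4 held GCGTG. Of the 5 called higher, 2 held ACGTG and 4 held GCGTG. Acacb is among both, and the start used for it lies 10388 bases from that of Acacb-205, its main transcript by TPM. The sterol response element TCACNCCAC (1.24% of all promoters) and the exact direct repeat known as the PPAR element (0.0399%) were in 0 of the 43. Each match is a match of letters only, and a missing match says nothing of sites outside the window.

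Fatty acid genes were more often lower than higher in the tumour libraries. By edgeR's quasi-likelihood test with Benjamini-Hochberg adjustment over all tested genes, 12 of the 50 members fell (24%, against 10.4% of all tested genes) and 5 rose (10%, against 10.5%), and 33 did not pass the adjusted threshold of 0.05. In either direction, 20.9% of all tested genes passed. The median log2 fold change, tumour over sham, was -0.18 for the members and -0.02 for all tested genes. Every tumour library lay below every sham library for 22 members (44%, against 21.9% of all tested genes) and above for 9 (18%, against 22.2%), while 19 overlapped. In bulk RNA, fewer cells that express a gene and less of its RNA per cell cannot be told apart.

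**Figure D1:**
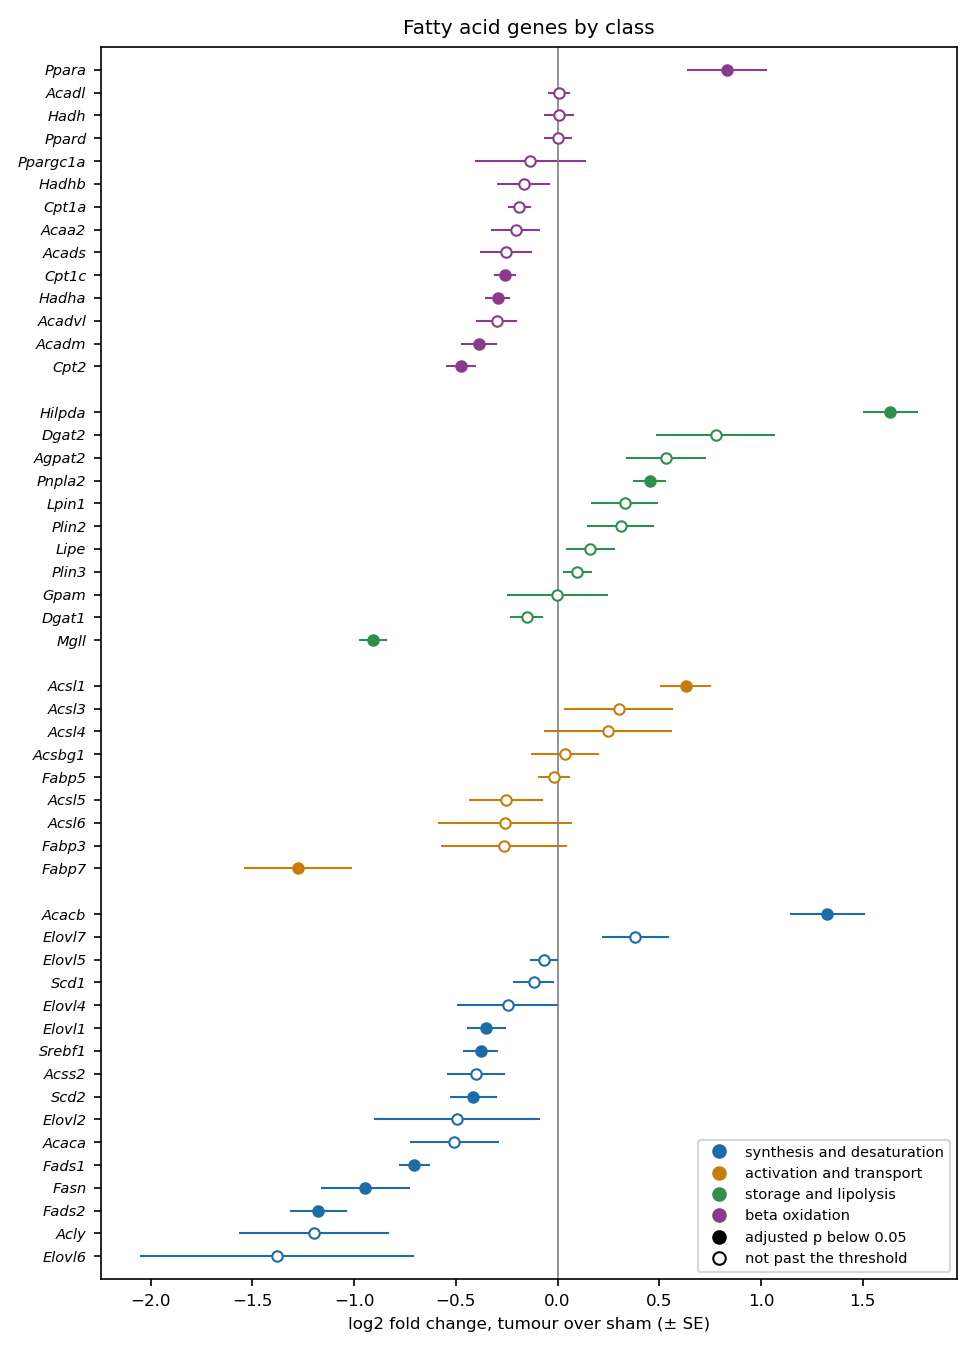
The log2 fold change (tumour over sham, x axis) of each of the 50 members with its standard error, by class, with members past the adjusted threshold filled. Hilpda lies farthest to the right at 1.64, and the called members of synthesis lie left of 0 apart from Acacb.

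Among the 16 genes of synthesis and desaturation, 6 fell (37.5%, against 10.4% of all tested genes) and 1 rose (6.25%, against 10.5%), with a median log2 fold change of -0.41. The 12 members for which all tumour libraries lay below all sham libraries included Fasn, Acly, Acss2 and Acaca, which stand at the start of the pathway, and both front-end desaturases. The rise was that of Acacb, the carboxylase isoform held at the mitochondrial outer membrane, whose product inhibits carnitine palmitoyltransferase.

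Fads2 and Fads1 encode the desaturases that make long polyunsaturated fatty acids, and they lie near each other on chromosome 19. Fads2 (chr19:10062765-10101746) had 78.0, 80.2 and 77.6 CPM in tumour 1 to 3 and 158, 155 and 219 CPM in sham 1 to 3. All tumour values were below all sham values, and sham 3 was the highest. The fall was 2.26-fold (edgeR adjusted p = 0.00357, log2 fold change -1.18 ± 0.14 SE). Fads1 (chr19:10182888-10196877) had 310.1, 300.2 and 310.0 CPM in tumour and 491, 491 and 517 CPM in sham libraries. Its groups did not overlap either, and all 3 sham values were close. Fads1 fell 1.63-fold (edgeR adjusted p = 0.00276, log2 fold change -0.70 ± 0.08 SE).

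Fasn (chr11:120805846-120824547), the synthase that builds palmitate, had 264, 266 and 262 CPM in tumour and 415, 409 and 701 CPM in sham libraries. Here sham 3 was well above sham 1 and 2, which were themselves above all tumour libraries. The fall was 1.92-fold (edgeR adjusted p = 0.0284, log2 fold change -0.94 ± 0.22 SE). Acly makes the cytosolic acetyl-CoA that the pathway starts from, and it showed the same order with a wider spread: 166, 158 and 161 CPM in tumour against 245, 249 and 616 CPM in sham libraries. It did not pass (edgeR adjusted p = 0.0638, log2 fold change -1.20 ± 0.37 SE). Acaca, the main cytosolic acetyl-CoA carboxylase, had 83.2, 83.9 and 84.2 CPM in tumour and 97.6, 94.1 and 166 CPM in sham libraries, and did not pass (edgeR adjusted p = 0.148). Acss2, which makes acetyl-CoA from acetate, had log2 fold change -0.40 and also did not pass.

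Acacb (chr5:114146535-114250761) was low in all libraries, with 5.22, 5.47 and 4.42 CPM in tumour and 2.15, 1.87 and 2.00 CPM in sham libraries. The groups did not overlap and the sham values were close. It rose 2.51-fold (edgeR adjusted p = 0.00571, log2 fold change 1.32 ± 0.18 SE). With offsets for transcript length its log2 fold change was 2.16 (edgeR adjusted p = 0.0149). Measured per length in TPM (length-corrected units that sum to the same total in each library), Acacb made up 5.43% to 9.12% of the 2 carboxylases in tumour libraries and 1.02% to 1.19% in sham libraries. That share leans on the transcript Acacb-205, which held 45.8%, 39.3% and 59.5% of the gene's TPM in tumour 1 to 3, was listed at 0 in sham 1 and 2, and held 51.8% in sham 3. Acacb-205 is only 676 bases long, against 9026 for the main Acaca transcript, and a short length raises TPM. The transcript Acacb-201 was at 0.70, 0.29 and 0.38 TPM in tumour and 0.10, 0.26 and 0.26 TPM in sham libraries. Its groups did not overlap, but tumour 2 came close to sham 2 and 3.

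The stearoyl-CoA desaturases, which make monounsaturated fatty acids, were the most abundant members. Scd2 (chr19:44293674-44306864), the main brain form, had 2217, 2198 and 2163 CPM in tumour and 2989, 2998 and 2787 CPM in sham libraries. It fell 1.33-fold without overlap (edgeR adjusted p = 0.048, log2 fold change -0.42 ± 0.12 SE), near the threshold. Scd1 had 1449, 1488 and 1478 CPM in tumour and 1612, 1622 and 1558 CPM in sham libraries, which also did not overlap, but its log2 fold change of -0.12 did not pass (edgeR adjusted p = 0.452). Scd1 made up 43.5% to 44.8% of the pair's TPM in tumour libraries and 38.8% to 39.8% in sham libraries.

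Elongases add carbons to the chains, and of the 6 measured only Elovl1 passed. Elovl1 (chr4:118428093-118432953), which extends saturated very long chains, had 59.9, 53.6 and 52.2 CPM in tumour and 68.6, 64.1 and 78.6 CPM in sham libraries (edgeR adjusted p = 0.0487, log2 fold change -0.35 ± 0.10 SE). The groups did not overlap, but tumour 1 came close to sham 2. Elovl6, which extends palmitate, was at 23.4, 23.7 and 22.6 CPM in tumour and at 23.9, 25.6 and 132 CPM in sham libraries. Only sham 3 was high, sham 1 and 2 being near the tumour level, and the log2 fold change of -1.38 did not pass (SE 0.67, edgeR adjusted p = 0.195). Elovl5, the most abundant elongase by TPM, had log2 fold change -0.07, and Elovl7 had 0.38 with all tumour libraries above all sham libraries, but neither passed. Elovl2 and Elovl4 were below 5 CPM in every library and overlapped.

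Srebf1 (chr11:60199089-60222581), the transcription factor gene that drives fatty acid synthesis, had 195, 197 and 195 CPM in tumour and 236, 247 and 281 CPM in sham libraries. The groups did not overlap, and the gene fell 1.30-fold (edgeR adjusted p = 0.0261, log2 fold change -0.38 ± 0.09 SE). Srebf1 overlaps Rai1 on the opposite strand and Elovl1 overlaps Cdc20, so that part of their reads cannot be assigned without knowing the strand. The calls of Fasn, Scd2, Elovl1 and Srebf1 each ended when tumour 1, 2 or 3 was left out, those of Scd2 and Elovl1 also without sham 1 or 2, and that of Srebf1 without sham 2. In those fits the adjusted p was 0.0598 to 0.187, while the log2 fold changes stayed at -0.95 to -0.94, -0.42 to -0.40, -0.42 to -0.31 and -0.41 to -0.37 in the order named. The call of Scd2 also ended with no filter on low counts (edgeR adjusted p = 0.077), and that of Elovl1 with length offsets (0.131). Fasn's log2 fold change was -0.64 without sham 3.

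Among the 9 genes of activation and transport, 1 rose and 1 fell (11.1% each, near the 10.5% and 10.4% of all tested genes), with a median log2 fold change of -0.02. Fabp7 (chr10:57784881-57788450), the brain fatty acid binding protein of immature astrocytes and radial glia, had 38.8, 41.2 and 37.5 CPM in tumour and 73.8, 71.7 and 139 CPM in sham libraries. All tumour values were below all sham values, with sham 3 far above the rest. Fabp7 fell 2.42-fold (edgeR adjusted p = 0.0198, log2 fold change -1.28 ± 0.26 SE). Without tumour 1, 2 or 3 the call ended (log2 fold change -1.32 to -1.25, adjusted p = 0.0812 to 0.0909).

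Fabp5, the epidermal form, had 29.9, 30.1 and 32.9 CPM in tumour and 31.4, 33.4 and 29.4 CPM in sham libraries, which overlapped throughout (log2 fold change -0.02, SE 0.08). Fabp3 was near 1 CPM in every library and overlapped too. By TPM, Fabp7 made up 62.1% to 66.1% of these 3 binding proteins (Fabp4 not counted) in tumour libraries and 75.0% to 87.0% in sham libraries, and Fabp5 made up 33.1% to 36.7% and 12.5% to 24.3%. Of the 31-base stretches of the main Fabp5 transcript, 33.1% also occur in other genes, so its level is less certain than that of Fabp7.

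Acsl1 (chr8:46471037-46536051), an acyl-CoA synthetase that feeds both oxidation and triglyceride, had 26.4, 27.1 and 25.9 CPM in tumour and 16.9, 14.4 and 20.0 CPM in sham libraries. The groups did not overlap, and it rose 1.55-fold (edgeR adjusted p = 0.0173, log2 fold change 0.63 ± 0.13 SE). That call ended without tumour 1, 2 or 3 or sham 1 (log2 fold change 0.61 to 0.65, adjusted p = 0.0622 to 0.0801), and with length offsets (adjusted p = 0.0924). The other synthetases did not pass, and in them sham 3 lay away from both sham 1 and 2 and the tumour libraries. Acsl6, which activates docosahexaenoic acid in brain, was at 159, 157 and 156 CPM in tumour and 233, 236 and 94.2 CPM in sham libraries. Acsl4, which prefers arachidonic acid, was at 71.3, 69.9 and 68.0 CPM in tumour and 42.2, 41.3 and 92.6 CPM in sham libraries. In both genes the tumour values lay between sham 3 and the other sham libraries. Acsl3 was at 267, 269 and 268 CPM in tumour and 266, 259.8 and 127 CPM in sham libraries, so only sham 3 was low. Acsbg1, an astrocyte synthetase, had log2 fold change 0.04, and without sham 3 it was -0.14 and past the threshold (edgeR adjusted p = 0.000261). In that fit, which sets only near libraries against each other, 57.7% of all tested genes passed.

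**Figure D2:**
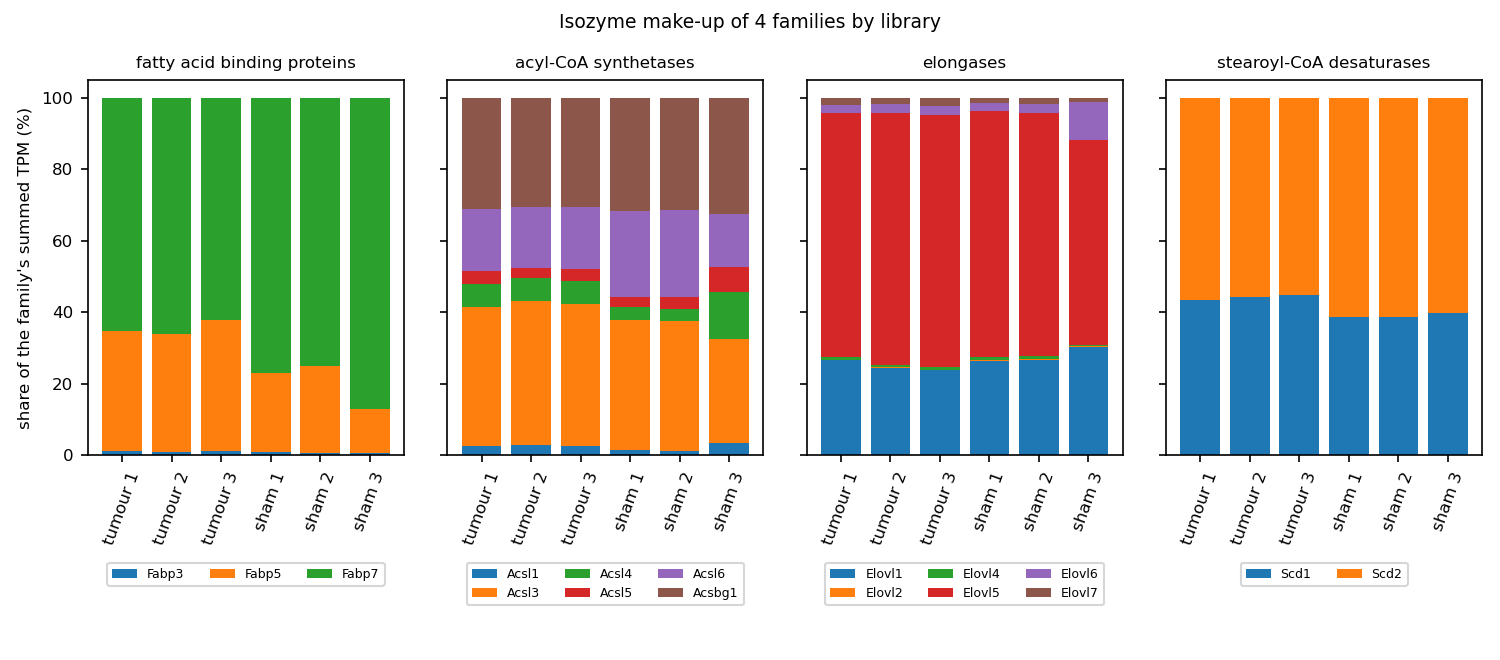
Stacked bars give the share of each family's summed TPM (y axis, percent) held by each gene in each of the 6 libraries, for 4 families. Of the 3 binding proteins drawn, which leave out Fabp4, Fabp7 holds 62.1% to 66.1% in tumour libraries and up to 87.0% in sham 3, and Elovl6 holds 10.6% of the elongases in sham 3.

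In storage and lipolysis 2 of 11 members rose (18.2%, against 10.5% of all tested genes) and 1 fell (9.09%, against 10.4%), with a median log2 fold change of 0.31, the only class with a median above 0. Hilpda (chr6:29272488-29275446), a droplet protein that inhibits the lipase made by Pnpla2 and is known as a hypoxia-induced gene, had 31.6, 33.1 and 34.8 CPM in tumour and 9.46, 9.68 and 12.9 CPM in sham libraries. Every tumour library was far above every sham library, and sham 3 was the highest of the sham libraries. Hilpda rose 3.11-fold (edgeR adjusted p = 0.00116, log2 fold change 1.64 ± 0.14 SE), the largest rise among the members in this fit. Pnpla2 (chr7:141455198-141460743), the first triglyceride lipase, had 87.9, 79.9 and 83.6 CPM in tumour and 65.5, 62.7 and 55.4 CPM in sham libraries. It rose 1.37-fold without overlap (edgeR adjusted p = 0.0126, log2 fold change 0.45 ± 0.08 SE), a call that ended without tumour 1, 2 or 3 (log2 fold change 0.42 to 0.49, adjusted p = 0.0509 to 0.0671). So an inhibitor and its target lipase were both higher in the tumour libraries.

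Mgll (chr6:88724412-88828360) encodes monoacylglycerol lipase, which completes lipolysis and in brain breaks down the endocannabinoid arachidonoylglycerol. It had 91.3, 88.1 and 80.9 CPM in tumour and 156, 166 and 166 CPM in sham libraries. Unlike Fasn and Fabp7, it was at one level in all 3 sham libraries. Mgll fell 1.88-fold (log2 fold change -0.91, SE 0.07), and its adjusted p of 0.000909 by edgeR was the smallest of the 50 members. Lipe, the hormone-sensitive lipase that acts between the other two, was at 14.8 to 19.5 CPM over all libraries, overlapped, and did not pass (log2 fold change 0.16).

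Plin2, the coat protein of lipid droplets, had 75.4, 71.8 and 73.9 CPM in tumour and 51.2, 50.6 and 76.5 CPM in sham libraries. The tumour values were above sham 1 and 2 but not above sham 3, and the gene did not pass (edgeR adjusted p = 0.229, log2 fold change 0.31 ± 0.17 SE). Lpin1, a phosphatidate phosphatase of triglyceride synthesis, was at 97.6, 88.6 and 93.3 CPM in tumour and 65.2, 62.1 and 95.0 CPM in sham libraries, so that sham 3 lay among the tumour values. Agpat2, an acyltransferase of the same route, was at 13.9, 12.7 and 12.4 CPM against 7.74, 7.40 and 11.8 CPM, with no overlap (edgeR adjusted p = 0.103). Dgat2, which makes triglyceride, was at 5.96, 4.97 and 5.41 CPM in tumour and 4.09, 3.53 and 1.91 CPM in sham libraries (edgeR adjusted p = 0.107, log2 fold change 0.78 ± 0.29 SE). Its counterpart Dgat1 went the other way (log2 fold change -0.15) and also did not pass. Plin3 and Gpam had log2 fold changes of 0.10 and -0.00, with overlapping groups.

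**Figure D3:**
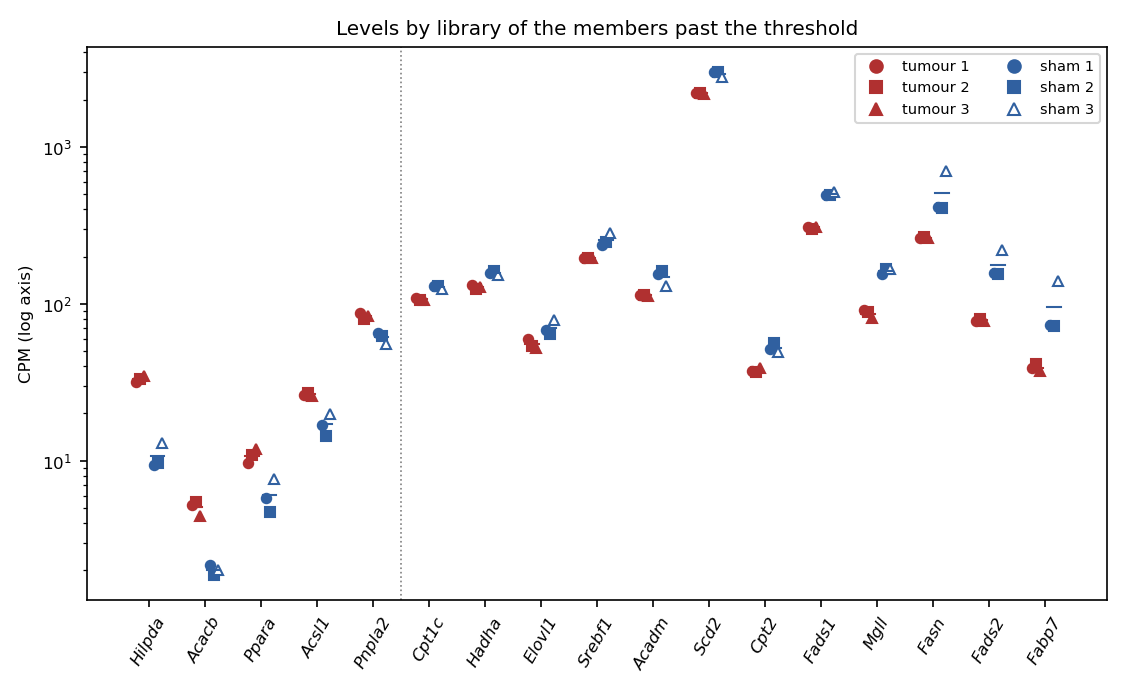
The level (CPM, log scale, y axis) of each called member in each of the 6 libraries, with tumour and sham libraries in separate colours. The tumour points lie on one side of all sham points for each of the 17 members. Sham 3 is the highest sham library for Fasn, Fads1, Fads2, Elovl1, Srebf1, Acsl1, Fabp7, Hilpda and Ppara.

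Among the 14 genes of beta oxidation and its control, 4 fell (28.6%, against 10.4% of all tested genes) and 1 rose (7.14%, against 10.5%), with a median log2 fold change of -0.20, and 7 had all tumour libraries below all sham libraries. Falls were small next to those of Fads2 or Mgll. Cpt2 (chr4:107903981-107923610), the inner-membrane enzyme of the carnitine shuttle, had 37.1, 37.0 and 39.2 CPM in tumour and 51.4, 56.7 and 49.4 CPM in sham libraries. It fell 1.39-fold without overlap (edgeR adjusted p = 0.00832, log2 fold change -0.48 ± 0.07 SE). Leaving out tumour 1 or 2 ended the call (adjusted p = 0.0536 and 0.0539, log2 fold change -0.46).

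The outer-membrane step is served by Cpt1a, the liver form that astrocytes use. Cpt1c encodes a related brain form with little enzyme activity, and its level does not stand for that step. Cpt1c (chr7:44959372-44974851) had 109.6, 106 and 106 CPM in tumour and 130.1, 130.3 and 124 CPM in sham libraries, and fell 1.20-fold (edgeR adjusted p = 0.0218, log2 fold change -0.26 ± 0.06 SE). Cpt1a had 117, 110.5 and 115 CPM in tumour and 128, 129 and 134 CPM in sham libraries, without overlap, but did not pass (edgeR adjusted p = 0.0625, log2 fold change -0.19 ± 0.06 SE). Cpt1c was the larger share of the pair's TPM in every library, at 58.3% to 59.3% in tumour and 58.4% to 61.8% in sham libraries. The minor transcript Cpt1c-206 made up 11.6% to 12.7% of the gene's TPM in tumour libraries and 5.51% to 5.65% in sham libraries.

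Of the enzymes of the oxidation cycle, Acadm and Hadha fell. Acadm (chr3:153922357-153944632), the medium-chain acyl-CoA dehydrogenase, had 114, 114 and 113 CPM in tumour and 155, 161 and 130.3 CPM in sham libraries (edgeR adjusted p = 0.0287, log2 fold change -0.39 ± 0.09 SE). Hadha (chr5:30118304-30155162), the alpha subunit of the mitochondrial trifunctional protein, had 132, 125 and 128 CPM in tumour and 158, 162 and 152 CPM in sham libraries (edgeR adjusted p = 0.0188, log2 fold change -0.30 ± 0.06 SE). Neither gene's groups overlapped in CPM. Hadha-201, annotated as a processed transcript, held 59.4% to 67.1% of the TPM of Hadha over all libraries. The coding transcript Hadha-205 was at 22.4, 19.2 and 18.0 TPM in tumour and 21.5, 23.1 and 25.7 TPM in sham libraries, which overlapped. The beta subunit Hadhb was at 123, 126 and 118 CPM in tumour and 151, 150.1 and 111 CPM in sham libraries, so sham 3 was below the tumour libraries and the gene did not pass (log2 fold change -0.17). Of the 31-base stretches of the main transcripts of Hadhb and Acadm, 66.1% and 11.8% also occur in other genes, and Hadha overlaps Garem2 on the opposite strand. The thiolase Acaa2 showed the same order with log2 fold change -0.21. Acadvl, for very long chains, had log2 fold change -0.30 (edgeR adjusted p = 0.0776), and Acads, for short chains, -0.25. Acadl and Hadh were both at 0.01 with overlapping groups, so the steps of the cycle did not share a single size of difference.

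Ppara (chr15:85734983-85802819), the nuclear receptor gene whose product drives oxidation genes, had 9.69, 10.8 and 11.8 CPM in tumour and 5.81, 4.74 and 7.62 CPM in sham libraries. The groups did not overlap in CPM, and it rose 1.78-fold (edgeR adjusted p = 0.0306, log2 fold change 0.83 ± 0.20 SE). The coding transcript Ppara-202 was at 2.27, 3.18 and 3.49 TPM in tumour and 1.40, 1.16 and 2.44 TPM in sham libraries, which overlapped. Ppara-206, annotated as a processed transcript, was at 2.03, 3.15 and 1.56 TPM in tumour and 1.67, 0.54 and 0.59 TPM in sham libraries. Ppard was at 49.7 to 55.2 CPM in all libraries (log2 fold change 0.00), and the coactivator gene Ppargc1a overlapped (log2 fold change -0.13). The calls of Cpt1c, Acadm, Hadha and Ppara each ended without tumour 1, 2 or 3 or sham 1 or 2. In those fits the adjusted p was 0.058 to 0.121, and the log2 fold changes were -0.27 to -0.25, -0.39 to -0.33, -0.31 to -0.27 and 0.68 to 0.90 in the order named. With length offsets Cpt1c, Acadm and Ppara did not pass (edgeR adjusted p = 0.0508, 0.0563 and 0.082).

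Sham 3 moved the classes to different degrees. Measured as log2(CPM + 0.5), the median difference of the tumour libraries from sham 1 and 2 was -0.28 for synthesis and desaturation, -0.06 for activation and transport, 0.38 for storage and lipolysis and -0.29 for beta oxidation. The median difference from sham 3 alone was -0.51, 0.07, 0.13 and -0.09 in the same order, against -0.01 and 0.00 for all tested genes. Thus the median of the synthesis genes was below 0 against either set of sham libraries, and that of the oxidation genes was closer to 0 against sham 3. Single genes departed from their class median: Elovl7 was 0.25 above sham 1 and 2 and 0.63 above sham 3, and for Acads the differences were -0.11 and -0.50. For Mgll these differences were -0.89 and -0.94, for Fads1 -0.68 and -0.75, and for Acacb 1.14 and 1.14. For Elovl6 they were -0.09 and -2.48, for Acsl6 -0.58 and 0.73, and for Acsl4 0.73 and -0.41. No label says what sets sham 3 apart.

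**Figure D4:**
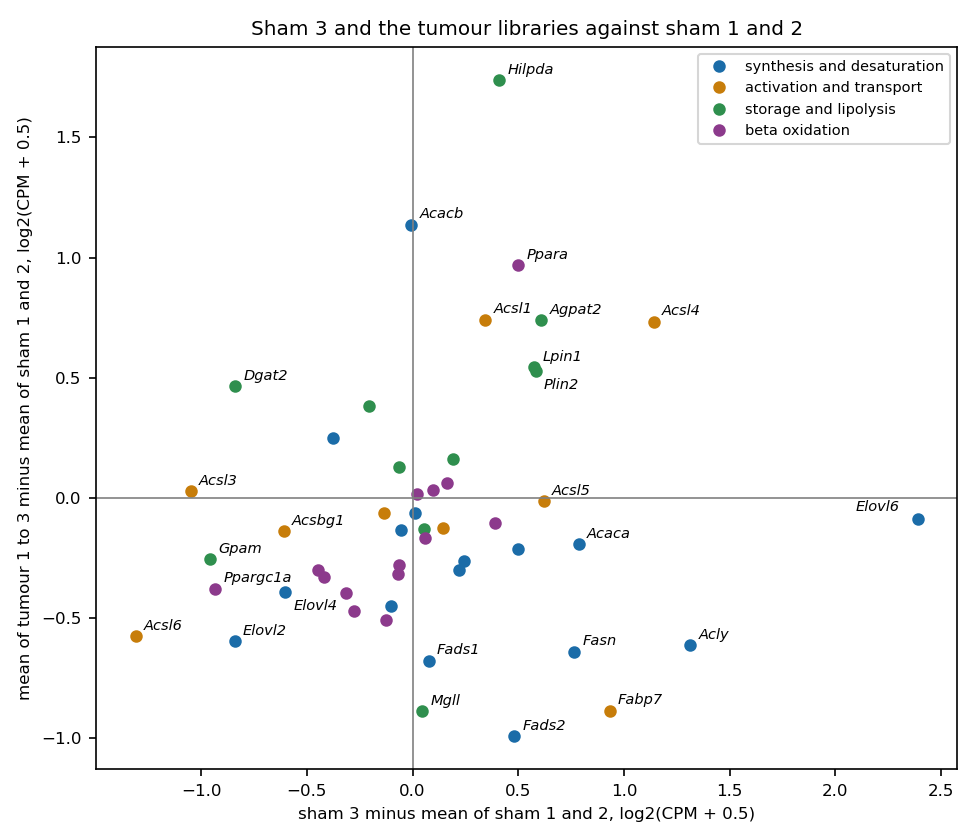
Each point is a member, with the difference of sham 3 from the mean of sham 1 and 2 on the x axis and of the 3 tumour libraries from the same mean on the y axis, both in log2(CPM + 0.5) and in class colours. Mgll, Fads1 and Acacb lie near 0 on the x axis, while Elovl6 lies at 2.39 on the x axis and -0.09 on the y axis.

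A further 117 genes of the same pathways, from 8 lists, were read for context, and 103 of them passed the filter. Of these, 19 fell (18.4%, against 10.4% of all tested genes) and 9 rose (8.74%, against 10.5%), with a median log2 fold change of -0.16. Among the 28 calls, 22 ended without at least 1 tumour library, 15 without sham 1 and 16 without sham 2, at an edgeR adjusted p of 0.0507 to 0.158. Thrsp, Mid1ip1, Lpin3, Fabp4, Mfsd2a and Rxra passed in each of these fits. Mitochondrial and carnitine genes gave 7 falls and 0 rises among 18 tested (38.9% and 0%, against 10.4% and 10.5% of all tested genes). They were Acat1 (log2 fold change -0.37), Eci1 (-0.34), Etfdh (-0.35), Etfb (-0.39), Decr1 (-0.47), Slc25a20 (-0.36) and Acad11 (-0.30), and for each the call ended when some single library was left out. Ketone body genes gave 0 of 6 in either direction (0%, against 10.4% lower and 10.5% higher over all tested genes).

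Among 16 tested partners of synthesis, 4 fell (25%, against 10.4% of all tested genes) and 1 rose (6.25%, against 10.5%). Thrsp and Mid1ip1, a related pair whose products promote fatty acid synthesis, fell with log2 fold changes of -1.13 and -0.69. Thrsp had 6.54, 6.62 and 6.99 CPM in tumour and 16.2, 14.8 and 13.2 CPM in sham libraries, without overlap. Hacd3 (-0.64) and Hsd17b12 (-0.45), enzymes of chain elongation, also fell, whereas Me1, which supplies NADPH, rose (0.43). Of 10 SREBP and LXR regulators, Nr1h2 (0.39) and Mbtps2 (0.34) rose and Mbtps1 (-0.29) fell. These rises and falls were 20% and 10% of the list, against 10.5% and 10.4% of all tested genes.

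Uptake and binding held the largest differences, with 2 rises and 3 falls among 11 tested (18.2% and 27.3%, against 10.5% and 10.4% of all tested genes). Fabp4, the adipocyte binding protein, also made by macrophages and endothelial cells, had 34.4, 33.3 and 35.9 CPM in tumour and 2.99, 2.99 and 8.39 CPM in sham libraries. Fabp4 rose 7.23-fold without overlap (edgeR adjusted p = 0.0061, log2 fold change 2.85 ± 0.40 SE). Dbi, an acyl-CoA binding protein (log2 fold change -1.33), and Mfsd2a, a transporter of docosahexaenoic acid as lysophospholipid (-0.98), fell, and so did Cd36, which was under 1 CPM in every library. Acot2, a mitochondrial thioesterase, rose (0.86). Other droplet genes gave 3 rises, Lpin3 (0.85), Daglb (0.39) and Agpat4 (0.37), and 2 falls, Ldah (-0.29) and Gpat4 (-0.23), among 23 tested. These rises and falls were 13.0% and 8.70% of those tested, near the 10.5% and 10.4% of all tested genes. Of the PPAR partners and targets, Pdk4, a kinase that restrains pyruvate oxidation, rose to 285, 284 and 291 CPM from 118, 114 and 57.7 CPM (edgeR adjusted p = 0.0102, log2 fold change 1.57 ± 0.26 SE), and Rxra fell (-0.55).

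Markers of other cell types were set beside these results, and their part in them was not tested. The 8 microglia and macrophage markers summed to 130.3 to 134 CPM in tumour and 85.8 to 121 CPM in sham libraries, with a 5.84-fold rise of Cd68 (edgeR adjusted p = 0.0017) and with Aif1, Cx3cr1, P2ry12, Csf1r, Ptprc and Itgam under 1 CPM in every library. Most of that sum was Tmem119, at 86.0 to 87.7 CPM in tumour and 79.6 to 110 CPM in sham libraries. The 6 endothelial markers summed to 619 to 627 CPM and 547 to 621 CPM, with Cldn5 at 0, Pecam1 under 1 CPM and a 2.44-fold fall of Kdr (edgeR adjusted p = 0.0035). Cdh5 alone gave most of it, at 573 to 577 CPM in tumour and 497 to 595 CPM in sham libraries. Oligodendrocyte markers summed to 431 to 447 CPM and 347 to 372 CPM, with Mog, Mag and Sox10 under 1 CPM and with a 1.55-fold rise of Pdgfra (edgeR adjusted p = 0.0326). Neuroendocrine tumour markers summed to 135 to 140.1 CPM in tumour and 119 to 166 CPM in sham libraries. Of 9 tested 0 passed, and Chga, Chgb and Epcam were under 1 CPM. Ncam1 was most of the sum, at 98.7 to 100.3 CPM in tumour and 65.4 to 117 CPM in sham libraries. Epcam, with at most 8 reads, was at 0.33, 0.33 and 0.24 CPM in tumour 1 to 3 and at 0 in sham libraries. Chga was at 0 in tumour and at 0.04 to 0.18 CPM in sham libraries. Neuron markers summed to 13.0 to 14.7 CPM and 12.8 to 15.2 CPM, with Rbfox3 at 0, but Gad1 rose 3.25-fold (edgeR adjusted p = 0.0019) and Tubb3 fell 2.05-fold (edgeR adjusted p = 0.0172), both at under 7 CPM.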

How the data were processed

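RNA-seq of 3 tumour and 3 sham astrocyte libraries was used, grouped and numbered by their titles. The authors deposited estimated counts and TPM per transcript, made with Salmon 0.8.2 on mm10 (DESeq2 1.28.1 is also named) per the submitters' processing notes. The deposited transcript lengths, plain and effective, are in bases. Index, kit and strandedness: not given in the sources used here. Here 112841 of 113116 transcripts were matched to GENCODE M21, and their estimated counts were added up by gene, then rounded. edgeR 4.0.16 (R 4.3.3) used TMM, filterByExpr (minimum count 10, total 15) and a robust quasi-likelihood fit over all 6 libraries. Adjustment was by Benjamini-Hochberg over 14359 genes, at 0.05. CPM use TMM library sizes, and SE is the size of the log2 fold change over the square root of F, which restates the test. TPM served for shares between genes. The test was tried on simulated data: 82.8% of 2-fold and 95% of 4-fold changes were recovered and 6.84% of calls were false (14201 genes). The simulated libraries were drawn independently, and none was set apart as sham 3 is, so these rates need not hold for the real libraries. DESeq2 1.42.0 and limma-voom (3.58.1) were alternatives. The members and lists were chosen with earlier results of these data known. All members could be named, with values in every library for called members and their isozymes, and up to 4 called genes of each other list with the smallest p. The remaining called genes of those lists were named to complete a count, after their values were seen. Protein sequences were not used here. Promoter motifs, the pieces printed (at most 29 bases of annotated untranslated sequence each) and the examples of uncalled members were chosen with these values in view. The result of 1 of the other lists is not reported here.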

Additional observations from a re-analysis of the deposited data

How the results depend on the processing

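Of the 17 called members, Acacb, Fads1, Fads2, Hilpda and Mgll stayed past the threshold in every alternative but the one that summed near libraries. When tumour 1 to 3 were summed to 1 sample and sham 1 and 2 to another, 0 genes passed in edgeR (573 of 15684 at an unadjusted p under 0.05), so the counts of all genes, of members and of every class were 0. Over all genes, 1506 rose and 1492 fell. Leaving out 1 library gave 536 to 4250 higher and 355 to 4179 lower over all genes, and 2 to 11 and 3 to 24 over members. The upper ends are without sham 3, where 57.7% of 14618 tested genes passed. By class these ranges were 1 to 1 higher and 2 to 10 lower in synthesis, 0 to 2 and 0 to 3 in activation, 1 to 7 and 1 to 2 in storage, and 0 to 1 and 0 to 9 in oxidation. Sham 3 stands so far from sham 1 and 2 that a check of deviations from the group means cannot exclude pairing. In that check the replicate numbers showed no pairing of the libraries (same-number correlations 0.00785, -0.0194 and -0.0008). With the number as a block, 829 genes rose and 607 fell, with 3 and 5 members, 2 falls in synthesis, 0 rises in activation, and 0 rises and 1 fall in oxidation. With length offsets 969 genes fell, members that rose numbered 3, no rise remained in activation (0) or oxidation (0), 2 oxidation genes fell, and Acacb moved to 2.16. DESeq2 called 1951 rises and 1968 falls. Some members near 0 changed sign: Gpam was 0.00017 with DESeq2, 0.064 with limma-voom, 0.061 with the block, 0.14 with near libraries summed and -0.26 to 0.17 with 1 library left out; Fabp5 was 0.00042 summed and -0.066 to 0.023 with 1 left out; Acadl, Hadh and Ppard were -0.0013, -0.0029 and -0.0077 without a filter, -0.00093, -0.024 and -0.020 summed, and -0.0088 to 0.023, -0.034 to 0.061 and -0.027 to 0.044 with 1 left out; Ppargc1a was 0.0074 summed and -0.39 to 0.11 with 1 left out; Acsbg1 was -0.14 to 0.13 with 1 left out, lowest without sham 3. The cause was not tested. At CPM near 1, as for Fabp3 and Elovl2, depth limits what can be seen.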
